A study of Homo sapiens with 12 samples.

Results

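Circadian clock and output genes were followed in T47D cells, an immortalized line from a human breast carcinoma with progesterone and estrogen receptors, after exposure to a progestin, that is, a compound that activates the progesterone receptor. The 10 genes were taken from the table by symbol: the period genes PER1, PER2 and PER3, the cryptochrome genes CRY1 and CRY2, the repressor gene BHLHE40, the nuclear receptor genes NR1D1 and NR1D2, and the output factors HLF and TEF. All 10 were among the 20114 gene symbols of the count table, and all 10 were among the 13872 genes with enough counts to test. Cells were starved in low, charcoal-stripped serum, a step the design text calls synchronization. They were then given vehicle, 100 pM or 10 nM of the progestin, and total RNA was taken after 18 h or 6 h. Each of the 6 groups (3 doses at each of 2 times) had 2 libraries, numbered replicate 1 and replicate 3. The labels name neither the progestin nor the vehicle. They do not say whether the 2 libraries of a group stem from separate cultures, so the p-values speak for the spread among these samples, which may be technical. Per the series title, the study is about how breast cancer cells answer different amounts of progestin.

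In the molecular clock, the CLOCK and BMAL1 proteins bind E-box elements and switch on the period, cryptochrome, REV-ERB and PAR bZIP genes. Period and cryptochrome proteins then block CLOCK and BMAL1, and the REV-ERB receptors (from NR1D1 and NR1D2) compete with ROR receptors at the BMAL1 gene, which closes the loop with a delay. BHLHE40 (DEC1) competes for E-boxes, and the PAR bZIP factors HLF and TEF act at D-boxes and carry the rhythm to output genes. PER1 is also known as an early target of glucocorticoid receptors, which are close relatives of the progesterone receptor.

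Promoter sequences are shown for 6 members that cover the kinds of response described below: PER1, PER2 and BHLHE40, whose direction or size changed with dose or time, and PER3, NR1D2 and TEF, which fell at 10 nM. They are RefSeq windows on GRCh38.p14, 250 bases before to 50 after an annotated start, written 5′ to 3′ along the gene. Capitals mark the E-box CACGTG, the E-prime box CACGTT, the D-box TTATGTAA, the ROR and REV-ERB half-site AGGTCA, and the half-site AGAACA of progesterone and glucocorticoid receptors, each on either strand, so CACGTT may read AACGTG, TTATGTAA may read TTACATAA, AGGTCA may read TGACCT and AGAACA may read TGTTCT. None of the marked matches overlaps another.
PER1 (chr17:8152355-8152654, minus strand): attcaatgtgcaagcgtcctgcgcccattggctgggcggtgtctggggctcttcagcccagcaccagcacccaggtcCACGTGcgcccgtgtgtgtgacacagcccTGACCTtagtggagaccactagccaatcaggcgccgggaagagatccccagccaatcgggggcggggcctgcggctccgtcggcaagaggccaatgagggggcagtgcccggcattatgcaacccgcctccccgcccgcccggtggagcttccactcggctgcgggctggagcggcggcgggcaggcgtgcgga
PER2 (chr2:238288561-238288860, minus strand): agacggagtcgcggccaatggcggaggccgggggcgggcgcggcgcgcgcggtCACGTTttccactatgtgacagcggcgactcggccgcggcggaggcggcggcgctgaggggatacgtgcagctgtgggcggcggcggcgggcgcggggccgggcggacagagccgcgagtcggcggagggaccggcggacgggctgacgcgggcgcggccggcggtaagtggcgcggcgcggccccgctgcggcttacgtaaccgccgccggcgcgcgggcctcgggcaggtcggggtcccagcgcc
BHLHE40 (chr3:4979187-4979486, plus strand): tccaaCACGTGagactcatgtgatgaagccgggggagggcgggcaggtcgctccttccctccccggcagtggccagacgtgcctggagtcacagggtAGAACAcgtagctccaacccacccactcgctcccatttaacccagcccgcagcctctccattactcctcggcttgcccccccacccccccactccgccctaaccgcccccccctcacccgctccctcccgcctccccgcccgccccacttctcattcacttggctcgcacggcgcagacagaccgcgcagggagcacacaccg
PER3 (chr1:7784041-7784340, plus strand): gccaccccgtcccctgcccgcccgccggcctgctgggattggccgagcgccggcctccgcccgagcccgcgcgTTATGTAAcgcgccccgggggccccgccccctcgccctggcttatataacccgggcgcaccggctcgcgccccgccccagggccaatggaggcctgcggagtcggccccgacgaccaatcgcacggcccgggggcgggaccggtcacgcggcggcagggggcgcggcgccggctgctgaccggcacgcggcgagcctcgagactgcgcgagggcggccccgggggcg
NR1D2 (chr3:23945871-23946170, plus strand): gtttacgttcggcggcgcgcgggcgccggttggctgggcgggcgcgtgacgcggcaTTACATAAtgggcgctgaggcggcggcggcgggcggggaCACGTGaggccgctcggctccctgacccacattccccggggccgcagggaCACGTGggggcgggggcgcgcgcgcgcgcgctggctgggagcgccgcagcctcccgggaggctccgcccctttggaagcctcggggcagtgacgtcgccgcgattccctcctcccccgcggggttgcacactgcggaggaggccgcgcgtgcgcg
TEF (chr22:41367205-41367504, plus strand): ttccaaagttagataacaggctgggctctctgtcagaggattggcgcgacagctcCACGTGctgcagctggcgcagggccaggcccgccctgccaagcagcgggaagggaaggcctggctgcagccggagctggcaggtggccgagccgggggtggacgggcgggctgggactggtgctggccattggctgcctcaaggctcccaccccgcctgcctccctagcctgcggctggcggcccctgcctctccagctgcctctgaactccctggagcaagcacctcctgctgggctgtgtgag

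The E-box stood in 5 of the 15 annotated windows of the 10 members (in PER1, BHLHE40, NR1D2 and both TEF windows), and in 7.26% of all 35116 promoter windows of the same length. The NR1D2 window shown above had 2 E-boxes, at -155 and -105 from the start. The E-prime box stood in 4 of the 15 windows, 1 each of PER2, CRY1, CRY2 and NR1D1, and in 5.34% of all windows. The D-box stood in 2 windows, that of PER3, at -177, and that of NR1D2, at -194, and in 0.886% of all windows. The half-site AGGTCA stood in 3 windows, 1 of PER1 and 2 of CRY2 (13.8% of all windows), and AGAACA in 1, that of BHLHE40, at -153 (14.8% of all windows). PER3, CRY2, NR1D2, HLF and TEF each have 2 annotated windows. Neither HLF window held any of these letters, nor did the windows of PER3 and NR1D2 that are not shown. These matches are descriptions of the letters in short windows, and the data do not show binding.

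Each library held between 34204970 and 41373890 counts, and the 10 members together took 0.0286% to 0.0523% of them. The share of mitochondrially encoded counts was higher in replicate 3 than in replicate 1 of every group: it was 6.73% and 8.93% at 10 nM for 6 h and 8.29% and 10.8% with vehicle for 6 h. Its part in the results was not tested. Within a group, PER3, CRY1, NR1D1 and NR1D2 were lower in replicate 3 than in replicate 1 in all 6 groups, and PER2 and CRY2 were higher in all 6. All 9 luminal breast markers were detected in every library. At 10 nM, 7 of the 9 fell at each time, where 15.2% of all genes were called lower at 18 h and 19.4% at 6 h. At 100 pM, 3 of the 9 fell at 18 h (3.89% of genes) and 0 at 6 h (0.606%). EPCAM, an epithelial adhesion gene, was not called at 10 nM (0.17 ± 0.13 at 18 h and -0.01 ± 0.13 at 6 h). Their summed level was 11141 to 11803 CPM with vehicle, 10131 to 11203 CPM at 100 pM and 5332 to 5423 CPM at 10 nM for 18 h. For 6 h it was 11701 to 11773 CPM with vehicle, 11290 to 11612 CPM at 100 pM and 7008 to 7038 CPM at 10 nM. CPM is the count as a share of the library total after TMM scaling, set to a fixed total. Of 10 markers of other cell types in the table, CD3E and COL1A2 had at most 1 count in a library and PTPRC at most 5. That list summed to 125 to 128 CPM with vehicle, 90.4 to 92.1 CPM at 100 pM and 87.2 to 90.7 CPM at 10 nM for 18 h. For 6 h it summed to 116 to 126 CPM with vehicle, 105 to 121 CPM at 100 pM and 117 to 121 CPM at 10 nM. Its highest gene was COL1A1, at 66.1 to 114 CPM over the libraries. KRT5, a keratin gene of basal cells, went the other way: it measured 2.35 and 7.02 CPM at 10 nM and 0.0839 and 0.0542 CPM with vehicle for 18 h (adjusted p = 0.000795). KRT5 also rose at 10 nM for 6 h (adjusted p = 0.00124). KRT14, the other basal keratin gene of that list, was not higher at 10 nM. Its mean was 0.157 CPM at 10 nM and 0.221 CPM with vehicle for 18 h, and 0 and 0.102 CPM for 6 h. It had at most 15 counts in a library. The part of these marker shifts in the clock genes' results was not tested, and in bulk libraries fewer cells of a kind and less RNA per cell cannot be told apart.

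Clock genes were called against vehicle at both doses and both times, with higher and lower members in each of the 4 comparisons. A call below is an adjusted p under 0.05 in edgeR's quasi-likelihood test with Benjamini-Hochberg adjustment over all 13872 genes, and the value in brackets after a gene is its log2 fold change with the SE. At 18 h, 10 nM gave 1 higher and 6 lower members against vehicle, where 19% of all tested genes were called higher and 15.2% lower. At 6 h, 10 nM gave 2 higher and 6 lower members, where 22.6% of genes were called higher and 19.4% lower. At 100 pM for 18 h, 2 members were higher and 3 lower (6.57% and 3.89% of genes), and at 100 pM for 6 h, 2 were higher and 1 lower (2.88% and 0.606% of genes). The median log2 fold change of the 10 members at 10 nM was -0.64 at 18 h and -0.88 at 6 h, beside 0.00 and -0.02 over all genes, and at 100 pM it was -0.39 at 18 h and -0.16 at 6 h, beside -0.03 and -0.02. The comparisons of both doses share their vehicle libraries. Libraries with the same replicate number deviated together, and values from a fit that takes up that number are given as with the block where they change a call named here. With the block, 10 members were called at 10 nM for 18 h (56% of genes), 9 at 10 nM for 6 h (62.4%), 9 at 100 pM for 18 h (34.1%) and 8 at 100 pM for 6 h (12.2%).

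**Figure D1:**
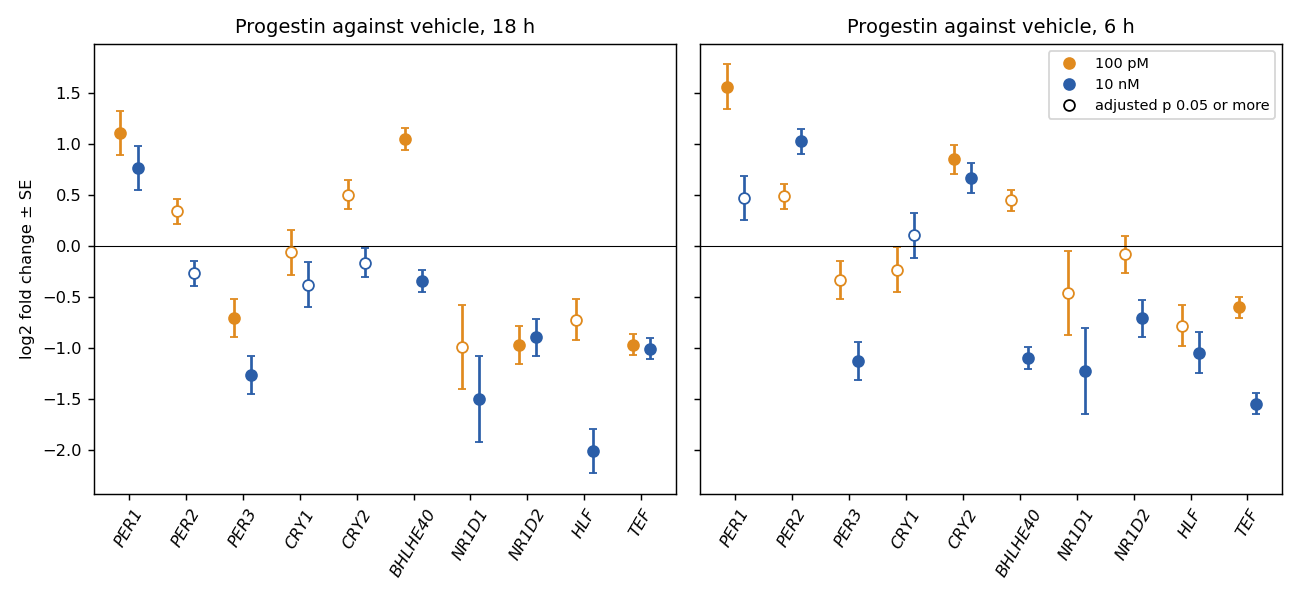
Log2 fold change ± SE (y axis) of the 10 clock genes (x axis) at 100 pM (orange) and 10 nM (blue) against vehicle, at 18 h (left) and 6 h (right); open points had an adjusted p of 0.05 or more in edgeR's quasi-likelihood test. PER1 lies above 0 in all 4 comparisons, PER3, NR1D1, NR1D2, HLF and TEF lie below 0 in all 4, and BHLHE40 lies above 0 at 100 pM and below 0 at 10 nM.

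PER1, a period gene whose protein restrains CLOCK and BMAL1, rose at 100 pM at both times and at 10 nM for 18 h, and at 6 h it was lower at the high dose than at the low one. Its promoter window holds an E-box (7.26% of all windows) and the half-site AGGTCA (13.8% of all windows). Levels of PER1 at 18 h were 15.4 and 20.7 CPM with vehicle, 40.2 and 37.2 CPM at 100 pM and 24.7 and 36.6 CPM at 10 nM (replicate 1 then replicate 3, as in all such pairs). PER1 at 6 h measured 13.6 and 17.1 CPM with vehicle, 42.4 and 47.9 CPM at 100 pM and 19.4 and 23.1 CPM at 10 nM. All 8 treated libraries lay above both vehicle libraries of their time, and at each time both 100 pM libraries lay above both 10 nM libraries. PER1 rose at 100 pM for 18 h (1.10 ± 0.22, adjusted p = 0.0151) and for 6 h (1.56 ± 0.22, adjusted p = 0.00490), and at 10 nM for 18 h (0.76 ± 0.22, adjusted p = 0.0249). At 10 nM for 6 h the difference from vehicle was not called (0.47 ± 0.22, adjusted p = 0.117, with the block 0.0106). Directly compared, 10 nM was lower than 100 pM at 6 h (-1.09 ± 0.22, adjusted p = 0.00449) and was not called at 18 h (-0.34 ± 0.21, adjusted p = 0.284, with the block 0.0338). Without vehicle replicate 1 the adjusted p was 0.113 at 100 pM for 18 h, 0.0591 at 100 pM for 6 h and 0.150 at 10 nM for 18 h. The 100 pM call at 18 h was also lost without either 100 pM library (0.0666 and 0.0527) and with the 18 h libraries alone (0.0626). The 10 nM call at 18 h was also lost without 10 nM replicate 3 (log2 0.44, adjusted p = 0.181) and with the 18 h libraries alone (0.0629).

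PER2, a second period gene, rose at the high dose at 6 h but was not called against vehicle at 18 h. Levels of PER2 at 18 h were 35.1 and 39.0 CPM with vehicle, 44.0 and 49.7 CPM at 100 pM and 27.5 and 33.9 CPM at 10 nM. PER2 at 6 h measured 34.6 and 34.7 CPM with vehicle, 45.8 and 51.1 CPM at 100 pM and 66.8 and 73.9 CPM at 10 nM. At 6 h the 3 doses did not overlap and the level climbed with dose, whereas at 18 h both 10 nM libraries were the lowest of that time. PER2 rose at 10 nM for 6 h (1.02 ± 0.12, adjusted p = 0.000241), a call kept when any 1 of the 4 libraries was left out. It was not called at 10 nM for 18 h (-0.27 ± 0.12, adjusted p = 0.121, with the block 0.00753, and 0.0494 without 10 nM replicate 3, log2 -0.44). At 100 pM it was not called at 18 h (0.34 ± 0.12, adjusted p = 0.120, with the block 0.00401) or 6 h (0.48 ± 0.12, adjusted p = 0.0792, with the block 0.000726). The 10 nM level was below the 100 pM level at 18 h (-0.61 ± 0.12, adjusted p = 0.00658) and above it at 6 h (0.54 ± 0.12, adjusted p = 0.00814). The call at 6 h was lost without 100 pM replicate 1 (0.0640) or 10 nM replicate 3 (0.0628).

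CRY2, a cryptochrome gene whose protein joins the period proteins in repression, rose early at both doses. Levels of CRY2 at 18 h were 45.6 and 54.6 CPM with vehicle, 66.0 and 75.8 CPM at 100 pM and 41.9 and 47.5 CPM at 10 nM. CRY2 at 6 h measured 46.6 and 52.7 CPM with vehicle, 81.3 and 97.1 CPM at 100 pM and 71.7 and 85.4 CPM at 10 nM. At 6 h all 4 treated libraries lay above vehicle, and at 18 h both 100 pM libraries did while 10 nM overlapped vehicle. CRY2 rose at 100 pM for 6 h (0.85 ± 0.14, adjusted p = 0.0134) and at 10 nM for 6 h (0.66 ± 0.14, adjusted p = 0.00602). At 18 h it was not called at 100 pM (0.50 ± 0.14, adjusted p = 0.0620, with the block 4.46e-05) or at 10 nM (-0.17 ± 0.14, adjusted p = 0.417, with the block 0.0327). At that time 10 nM was lower than 100 pM (-0.67 ± 0.14, adjusted p = 0.00968), and at 6 h the doses were not told apart (-0.18 ± 0.14, adjusted p = 0.350, with the block 0.0150). The 100 pM call was lost without 100 pM replicate 3, vehicle 1 or vehicle 3 (adjusted p 0.0557 to 0.126), and the 10 nM call without 10 nM replicate 3 (0.0571). The dose difference at 18 h was lost without 100 pM replicate 3 (0.0642) or 10 nM replicate 1 (0.0710).

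CRY1, the other cryptochrome gene, was not called in any of the 11 comparisons. Levels of CRY1 at 18 h were 55.0 and 46.7 CPM with vehicle, 53.4 and 43.7 CPM at 100 pM and 44.0 and 34.1 CPM at 10 nM. CRY1 at 6 h measured 47.4 and 36.9 CPM with vehicle, 42.9 and 28.8 CPM at 100 pM and 48.3 and 42.1 CPM at 10 nM. Replicate 1 was above replicate 3 in all 6 groups, and within each time the doses overlapped, except that 10 nM lay below vehicle at 18 h (-0.38 ± 0.22). With the block, CRY1 was called lower at 10 nM for 18 h (adjusted p = 0.00201), lower at 10 nM than at 100 pM at 18 h (0.00816), and higher at 10 nM than at 100 pM at 6 h (0.00364).

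BHLHE40, whose product represses clock genes at E-boxes, moved in opposite directions at the 2 doses at 18 h, rising at 100 pM and falling at 10 nM. Its promoter window was the only member window with AGAACA, which stood in 14.8% of all windows. Levels of BHLHE40 at 18 h were 107 and 106 CPM with vehicle, 234 and 205 CPM at 100 pM and 79.3 and 88.5 CPM at 10 nM. BHLHE40 at 6 h measured 115 and 104 CPM with vehicle, 147 and 150.5 CPM at 100 pM and 55.1 and 46.5 CPM at 10 nM. At both times the 3 doses did not overlap, with 100 pM above vehicle and 10 nM below it. At 18 h BHLHE40 rose at 100 pM (1.04 ± 0.11, adjusted p = 0.000713) and fell at 10 nM (-0.34 ± 0.11, adjusted p = 0.0366). At 6 h it fell at 10 nM (-1.10 ± 0.11, adjusted p = 8.72e-05), and at 100 pM it was not called (0.44 ± 0.11, adjusted p = 0.0677, with the block 0.00449). The direct dose difference was -1.39 ± 0.11, adjusted p = 5.83e-05 at 18 h and -1.55 ± 0.11, adjusted p = 2.20e-05 at 6 h, and both calls were kept when any 1 library was left out. The fall at 10 nM for 18 h was lost without 10 nM replicate 1 (0.183), vehicle 1 (0.126) or vehicle 3 (0.111) and with the 18 h libraries alone (0.0534).

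**Figure D2:**
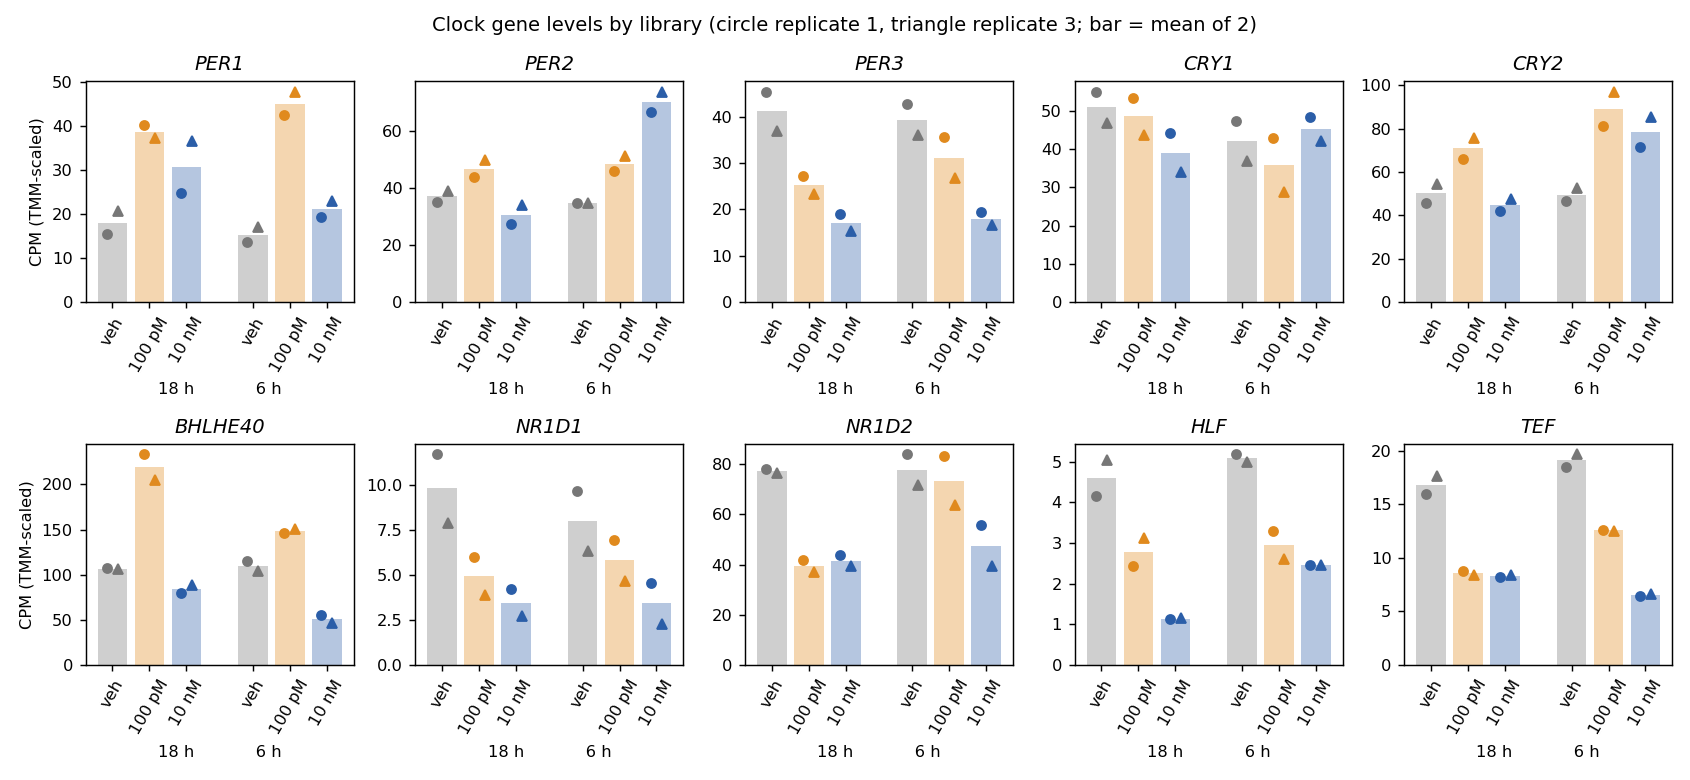
Level of each clock gene (y axis, CPM after TMM scaling, from 0) in every library, by dose (x axis: vehicle, 100 pM, 10 nM) at 18 h and 6 h; bars are the mean of 2 libraries, circles are replicate 1 and triangles replicate 3. The BHLHE40 panel shows 100 pM above and 10 nM below vehicle at both times, and the PER2 panel shows the 10 nM libraries highest at 6 h (66.8 and 73.9 CPM) and lowest at 18 h (27.5 and 33.9 CPM).

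PER3, the third period gene, fell at 10 nM at both times and at 100 pM for 18 h. Levels of PER3 at 18 h were 45.5 and 37.0 CPM with vehicle, 27.2 and 23.3 CPM at 100 pM and 18.9 and 15.4 CPM at 10 nM. PER3 at 6 h measured 42.7 and 36.1 CPM with vehicle, 35.6 and 26.8 CPM at 100 pM and 19.5 and 16.6 CPM at 10 nM. At each time the 3 doses did not overlap, with 10 nM lowest. PER3 fell at 10 nM for 18 h (-1.26 ± 0.19, adjusted p = 0.00100) and for 6 h (-1.13 ± 0.19, adjusted p = 0.00140), calls kept when any 1 library was left out. It fell at 100 pM for 18 h (-0.71 ± 0.18, adjusted p = 0.0431), a call lost on leaving out any library of the comparison (adjusted p 0.0742 to 0.235) and with the 18 h libraries alone (0.0816). At 100 pM for 6 h it was not called (-0.34 ± 0.18, adjusted p = 0.592, with the block 0.00653). Between doses, 10 nM was lower than 100 pM at 6 h (-0.79 ± 0.18, adjusted p = 0.00978), a call lost without 100 pM replicate 1 (0.0540) or 10 nM replicate 3 (0.0632). At 18 h the dose difference was not called (-0.56 ± 0.19, adjusted p = 0.0564, with the block 6.38e-05). In GENCODE v29, 10.7% of PER3 exon bases lie opposite exons of UTS2, which had at most 1 count in any library.

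Both REV-ERB genes fell at 10 nM at both times. NR1D2, which encodes REV-ERB beta, measured 78.0 and 76.6 CPM with vehicle, 41.8 and 37.0 CPM at 100 pM and 43.6 and 39.3 CPM at 10 nM at 18 h. Its levels at 6 h were 84.0 and 71.8 CPM with vehicle, 83.2 and 63.7 CPM at 100 pM and 55.9 and 39.3 CPM at 10 nM. All 4 treated libraries of 18 h lay below vehicle, while at 6 h 10 nM did and 100 pM overlapped vehicle. NR1D2 fell at 100 pM for 18 h (-0.97 ± 0.18, adjusted p = 0.0124) and at 10 nM for 18 h (-0.90 ± 0.18, adjusted p = 0.00552) and 6 h (-0.71 ± 0.18, adjusted p = 0.0132), and was not called at 100 pM for 6 h (-0.08 ± 0.18, adjusted p = 0.997). At 6 h 10 nM was lower than 100 pM (-0.63 ± 0.18, adjusted p = 0.0255), and at 18 h the doses were not told apart (0.08 ± 0.18, adjusted p = 0.800). The 100 pM call at 18 h was lost without 100 pM replicate 3, vehicle 1 or vehicle 3 (adjusted p 0.0568 to 0.0845). The 10 nM call at 6 h was lost without 10 nM replicate 3 (0.0663) or vehicle 1 (0.0760). The dose difference at 6 h was lost without 10 nM replicate 3 (log2 -0.38, adjusted p = 0.132) or 100 pM replicate 1 (log2 -0.43, 0.141) and with the 6 h libraries alone (0.0621).

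NR1D1, which encodes REV-ERB alpha, had low levels and a wide spread between replicates. Levels of NR1D1 at 18 h were 11.7 and 7.91 CPM with vehicle, 5.97 and 3.86 CPM at 100 pM and 4.19 and 2.72 CPM at 10 nM. NR1D1 at 6 h measured 9.69 and 6.33 CPM with vehicle, 6.95 and 4.65 CPM at 100 pM and 4.54 and 2.28 CPM at 10 nM. Replicate 3 was below replicate 1 in all 6 groups, and at both times 10 nM did not overlap vehicle. NR1D1 fell at 10 nM for 18 h (-1.50 ± 0.42, adjusted p = 0.0239) and for 6 h (-1.23 ± 0.42, adjusted p = 0.0436). At 100 pM it was not called at 18 h (-1.0 ± 0.41, adjusted p = 0.171, with the block 0.000131) or 6 h (-0.46 ± 0.41, adjusted p = 0.883, with the block 0.0390). Between 10 nM and 100 pM it was not called at 18 h (-0.51 ± 0.42, with the block 0.0122 as adjusted p) or 6 h (-0.77 ± 0.42, with the block 0.000502). The 18 h call was lost without 10 nM replicate 3 (0.124) or vehicle 1 (0.125). The 6 h call was lost without 10 nM replicate 3 (log2 -0.81, 0.214), vehicle 1 (0.207) or vehicle 3 (0.0510) and with the 6 h libraries alone (0.0594). In GENCODE v29 exons of NR1D1 and of THRA, a thyroid hormone receptor gene on the other strand, share 263 bases (9.49% of NR1D1 exon bases), and without a known strand setting their reads there cannot be told apart. THRA measured 54.9 and 50.7 CPM with vehicle, 46.1 and 40.5 CPM at 100 pM and 44.1 and 45.7 CPM at 10 nM at 18 h. Its log2 fold change at 10 nM was -0.23 ± 0.09 at 18 h (adjusted p = 0.0746, with the block 0.0177) and -0.35 ± 0.09 at 6 h (adjusted p = 0.0124).

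The PAR bZIP genes, whose products drive clock outputs at D-boxes, fell at 10 nM at both times, and TEF also at 100 pM. TEF measured 16.0 and 17.6 CPM with vehicle, 8.78 and 8.36 CPM at 100 pM and 8.24 and 8.43 CPM at 10 nM at 18 h. At 6 h TEF measured 18.5 and 19.7 CPM with vehicle, 12.7 and 12.5 CPM at 100 pM and 6.42 and 6.63 CPM at 10 nM. All 8 treated libraries lay below their vehicle libraries, with the doses apart at 6 h and overlapping at 18 h. TEF fell at 100 pM for 18 h (-0.97 ± 0.10, adjusted p = 0.000766) and 6 h (-0.61 ± 0.10, adjusted p = 0.0114), and at 10 nM for 18 h (-1.01 ± 0.10, adjusted p = 0.000121) and 6 h (-1.55 ± 0.10, adjusted p = 1.08e-05). It was the only member that edgeR called in all 4 comparisons with vehicle. At 6 h 10 nM was lower than 100 pM (-0.95 ± 0.10, adjusted p = 0.000191), and at 18 h the dose difference was -0.04 ± 0.10 and not called. The fall at 100 pM for 6 h was lost on leaving out any of its 4 libraries (adjusted p 0.0654 to 0.112) and with the 6 h libraries alone (0.0654), while its calls at 18 h, at 10 nM for 6 h and between doses at 6 h were kept when any 1 library was left out.

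HLF was the member with the fewest counts, at 39 and 41 reads in the 10 nM libraries of 18 h and 204 and 195 reads in the vehicle libraries of 6 h. Levels of HLF at 18 h were 4.17 and 5.04 CPM with vehicle, 2.44 and 3.12 CPM at 100 pM and 1.12 and 1.15 CPM at 10 nM. HLF at 6 h measured 5.19 and 4.99 CPM with vehicle, 3.30 and 2.60 CPM at 100 pM and 2.46 and 2.45 CPM at 10 nM. All 8 treated libraries lay below vehicle of the same time, and the lowest 2 of all 12 libraries were 10 nM at 18 h. HLF fell at 10 nM for 18 h (-2.02 ± 0.21, adjusted p = 0.000161), the largest fall of any member in a comparison with vehicle, and for 6 h (-1.05 ± 0.20, adjusted p = 0.00322), and both calls were kept when any 1 library was left out. At 100 pM it was not called at 18 h (-0.73 ± 0.20, adjusted p = 0.0541, with the block 0.00925) or 6 h (-0.78 ± 0.20, adjusted p = 0.0829, with the block 0.0128). The dose difference was -1.29 ± 0.22, adjusted p = 0.00263 at 18 h, and it was not called at 6 h (-0.26 ± 0.20).

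Set directly against 100 pM, 10 nM gave 0 higher and 4 lower members at 18 h by edgeR (PER2, CRY2, BHLHE40 and HLF), where 14.8% of tested genes were higher and 11.4% lower. At 6 h, 10 nM gave 1 higher member (PER2) and 5 lower (PER1, PER3, BHLHE40, NR1D2 and TEF), where 20.1% of genes were higher and 16.8% lower. BHLHE40 was the member called lower at both times. The median log2 difference of the members was -0.53 at 18 h and -0.70 at 6 h, beside 0.01 and -0.03 over all genes. With the block 8 members were called at 18 h (50.2% of genes) and 9 at 6 h (59.3%).

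Time alone, with vehicle, gave no call of a member. Between 18 h and 6 h of vehicle, 0 members and 0 of 13872 genes (0%) were called by edgeR and 0 of either by DESeq2. In the edgeR fit 0 members and 178 genes had an unadjusted p under 0.05. The fit with the block called 0 members and 4 genes (0.0288%). The members' log2 differences, 18 h over 6 h, ran from -0.19 ± 0.10 for TEF to 0.29 ± 0.41 for NR1D1. PER2 measured 37.1 ± 2.80 CPM with vehicle at 18 h and 34.6 ± 0.0252 CPM with vehicle at 6 h (SD, n = 2), and BHLHE40 106 ± 0.787 CPM and 109 ± 7.68 CPM. These 2 times lie 12 h apart, the design has no other time, and a rhythm cannot be read from them.

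With progestin some members differed by time. At 10 nM, 18 h against 6 h gave 5 called members, beside 24.5% of all genes: 2 were higher (BHLHE40 and TEF, beside 11.4% of genes) and 3 lower (PER2, CRY2 and HLF, beside 13.1%). PER2 fell to 30.7 ± 4.57 CPM at 18 h, against 70.3 ± 4.97 CPM at 6 h (SD, n = 2; -1.20 ± 0.12, adjusted p = 0.000446). CRY2 measured 44.7 ± 3.98 CPM at 18 h and 78.5 ± 9.73 CPM at 6 h (-0.81 ± 0.14, adjusted p = 0.00502), and HLF 1.14 ± 0.0230 CPM at 18 h and 2.46 ± 0.00653 CPM at 6 h (-1.11 ± 0.22, adjusted p = 0.00710). BHLHE40 was higher at 18 h (0.72 ± 0.11, adjusted p = 0.00228), as was TEF (0.35 ± 0.10, adjusted p = 0.0374). The TEF call was lost whichever of the 4 libraries was left out (adjusted p 0.0982 to 0.154), and the calls of PER2, CRY2, HLF and BHLHE40 were kept. PER1 was not called (0.53 ± 0.21, adjusted p = 0.109, with the block 0.00718, and 0.0409 without 10 nM replicate 1 at 18 h).

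At 100 pM, 18 h against 6 h gave 2 called members, beside 1.18% of all genes. BHLHE40 was higher at 18 h (0.56 ± 0.11, adjusted p = 0.0495, beside 0.526% of genes called higher), and TEF was lower (-0.55 ± 0.10, adjusted p = 0.0446, beside 0.656% called lower). BHLHE40 measured 219 ± 20.0 CPM at 18 h and 149 ± 2.76 CPM at 6 h, and TEF 8.57 ± 0.294 CPM at 18 h and 12.6 ± 0.124 CPM at 6 h (SD, n = 2). Both calls were lost whichever library was left out (adjusted p 0.123 to 0.247). With the block 6 members were called (22.2% of genes), among them PER3 (0.0121), CRY1 (0.00327) and CRY2 (0.00206). NR1D2 missed the threshold (-0.90 ± 0.18, adjusted p = 0.0601, with the block 0.000172), with 41.8 and 37.0 CPM at 18 h and 83.2 and 63.7 CPM at 6 h.

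The difference between times in the effect of a dose was tested as an interaction, the log2 fold change at 18 h minus that at 6 h. For 10 nM, 4 members were called (4.55% of genes higher and 5.99% lower): PER2 (-1.29 ± 0.17, adjusted p = 0.00430), CRY2 (-0.83 ± 0.20, adjusted p = 0.0368), BHLHE40 (0.76 ± 0.15, adjusted p = 0.0184) and TEF (0.54 ± 0.14, adjusted p = 0.0469). PER2 and CRY2 rose against vehicle at 6 h and were not called at 18 h, and the falls of BHLHE40 and TEF were smaller at 18 h. HLF, at -2.02 at 18 h and -1.05 at 6 h, was not called (-0.97 ± 0.29, adjusted p = 0.0704, with the block 0.0199), nor was CRY1 (-0.48 ± 0.31, with the block 0.00749 as adjusted p). The fit with the block called 6 members for 10 nM (35.1% of genes). The PER2 call was kept when any 1 of the 8 libraries was left out. The CRY2 and TEF calls were lost without any 1 of them (adjusted p 0.0543 to 0.124 and 0.0827 to 0.172). The BHLHE40 call was lost without 10 nM 3 or vehicle 1 at either time or vehicle 3 at 18 h (0.0516 to 0.0682). For 100 pM, edgeR called 0 members, beside 0.0144% of genes. In that fit 3 members and 988 of 13872 genes had an unadjusted p under 0.05. DESeq2 called 1 member and 107 genes. With the block BHLHE40 (0.0176), NR1D2 (0.00507) and CRY2 (0.0324) were called (5.6% of genes).

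**Figure D3:**
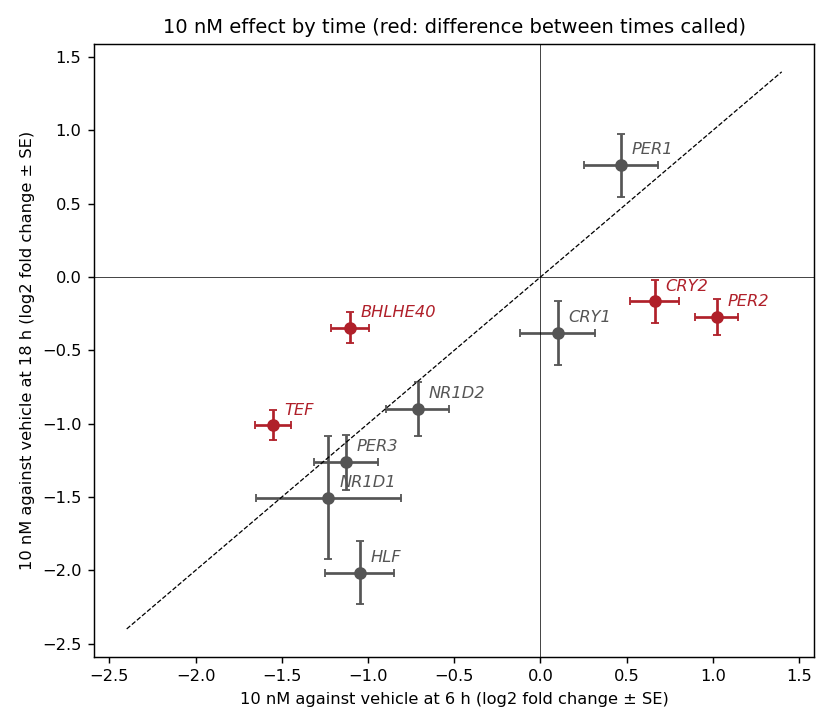
Log2 fold change ± SE at 10 nM against vehicle for each clock gene at 18 h (y axis) and at 6 h (x axis); the dashed line marks equal effects, and red genes had an adjusted p under 0.05 for the difference between times. PER2 (-0.27 at 18 h, 1.02 at 6 h) and CRY2 (-0.17 and 0.66) lie below the line, and BHLHE40 (-0.34 and -1.10) and TEF (-1.01 and -1.55) above it.

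The rest of the clock was read from 42 other genes present in the table, 40 of them tested. At 10 nM, 6 rose and 5 fell at 18 h and 9 rose and 7 fell at 6 h, that is 27.5% and 40.0% called, beside 34.1% and 42% of all genes. At 100 pM, 3 rose and 1 fell at 18 h and 2 rose and 0 fell at 6 h, 10.0% and 5.0% called, beside 10.5% and 3.48% of all genes. DBP, the third PAR bZIP gene, measured 8.86 and 7.72 CPM with vehicle, 4.02 and 3.35 CPM at 100 pM and 4.22 and 3.93 CPM at 10 nM at 18 h. Its 6 h levels were 8.90 and 6.94 CPM with vehicle, 5.38 and 4.77 CPM at 100 pM and 2.60 and 2.26 CPM at 10 nM. The treated DBP libraries all lay below vehicle of the same time. DBP fell at 100 pM for 18 h (-1.17 ± 0.19, adjusted p = 0.00561) and at 10 nM for 18 h (-1.02 ± 0.19, adjusted p = 0.00295) and 6 h (-1.70 ± 0.19, adjusted p = 0.000172), and at 100 pM for 6 h it was not called (-0.64 ± 0.18, adjusted p = 0.127, with the block 0.00468).

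Of the 4 activator genes, none was called against vehicle by edgeR. Among all genes, 34.1% and 42% were called at 10 nM for 18 h and 6 h. At 100 pM these shares were 10.5% and 3.48%. CLOCK measured 56.5 and 46.7 CPM with vehicle, 44.8 and 36.9 CPM at 100 pM and 108 and 61.5 CPM at 10 nM at 18 h. CLOCK at 6 h measured 56.1 and 45.7 CPM with vehicle, 50.9 and 36.0 CPM at 100 pM and 94.4 and 65.1 CPM at 10 nM. All 4 libraries at 10 nM lay above vehicle of the same time, with replicate 1 above replicate 3. Its log2 fold change at 10 nM was 0.72 ± 0.30 at 18 h (adjusted p = 0.0949, with the block 0.000516) and 0.65 ± 0.30 at 6 h (0.112, with the block 0.000707). It was higher at 10 nM than at 100 pM at 18 h (1.06 ± 0.30, adjusted p = 0.0304) and 6 h (0.88 ± 0.30, adjusted p = 0.0464). ARNTL, the BMAL1 gene, was not called in any comparison, with 0.58 ± 0.20 at 100 pM for 18 h (adjusted p = 0.112, with the block 0.00945) and -0.27 ± 0.21 at 10 nM for 6 h. NPAS2, a relative of CLOCK, was not called either (-1.0 ± 0.53 at 10 nM for 18 h, adjusted p = 0.184, with the block 0.0359).

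RORB, a gene of the ROR receptors that activate BMAL1, fell at 10 nM for 6 h (-2.92 ± 0.56, adjusted p = 0.00323) and stayed under 2 CPM in every library. RORA was not called (-0.65 ± 0.62 at 10 nM for 6 h). Among 5 further repressor genes, BHLHE41, the sister gene of BHLHE40, fell at 10 nM for 18 h (-2.78 ± 0.70, adjusted p = 0.0149) and 6 h (-2.26 ± 0.67, adjusted p = 0.0249), from few reads: 4 and 2 at 10 nM and 26 and 18 with vehicle at 18 h. TIMELESS, which also serves at replication forks, was lower at 10 nM than at 100 pM at 18 h (-0.72 ± 0.22, adjusted p = 0.0443). NFIL3, a D-box repressor, was 0.55 ± 0.30 at 10 nM for 18 h (adjusted p = 0.202, with the block 0.00653). CIART, which inhibits CLOCK and BMAL1 and stands in the table as C1orf51, was 0.73 ± 0.38 at 10 nM for 6 h (adjusted p = 0.163, with the block 0.00222).

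Among 12 genes of kinases and phosphatases that act on clock proteins, 4 rose and 2 fell at 10 nM for 18 h, 5 rose and 1 fell at 10 nM for 6 h, and 2 rose and 0 fell at 100 pM at each time. Of all genes, 19% rose and 15.2% fell at 10 nM for 18 h and 22.6% and 19.4% at 10 nM for 6 h, beside 6.57% and 3.89% at 100 pM for 18 h and 2.88% and 0.606% at 100 pM for 6 h. CSNK1A1, a casein kinase gene, rose in all 4 comparisons (0.90 ± 0.09 at 10 nM for 18 h, adjusted p = 0.000132). PPP1CB, a phosphatase subunit, rose at 10 nM for 18 h (1.54 ± 0.16, adjusted p = 0.000135), as did PRKAA2 (1.17 ± 0.18, adjusted p = 0.00104), while PRKAA1, the other catalytic subunit gene of AMP-activated kinase, fell (-0.66 ± 0.07, adjusted p = 0.000203). Of 8 ubiquitin ligase and deubiquitinase genes, 1 rose and 1 fell at 10 nM for 18 h and 2 rose and 2 fell at 10 nM for 6 h, which is 25% and 50% called, where 34.1% and 42% of all genes were called. USP2, a rhythmic deubiquitinase gene, fell at 10 nM for 18 h (-1.19 ± 0.16, adjusted p = 0.000607) and 6 h (-1.90 ± 0.17, adjusted p = 4.20e-05). At 100 pM for 6 h USP2 was not called (-0.46 ± 0.16, adjusted p = 0.224, with the block 0.0360). USP7 rose at both times at 10 nM (0.96 ± 0.08 at 18 h and 1.10 ± 0.08 at 6 h), and SIAH2, a ligase gene for REV-ERB alpha, rose at 10 nM for 6 h (1.23 ± 0.20, adjusted p = 0.00134).

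Of 8 tested genes known as direct clock outputs, CDKN1A, a cell cycle inhibitor gene, rose at 10 nM for 18 h (1.64 ± 0.15, adjusted p = 7.12e-05) and 6 h (1.08 ± 0.15, adjusted p = 0.000518) and at 100 pM for 18 h (0.92 ± 0.15, adjusted p = 0.00587). At 100 pM for 6 h CDKN1A was not called (0.41 ± 0.15, adjusted p = 0.275, with the block 0.00533). WEE1, a kinase gene that holds cells before mitosis, fell at 10 nM for 6 h (-0.85 ± 0.20, adjusted p = 0.00917), and KLF11 rose there (0.53 ± 0.17, adjusted p = 0.0340). The remaining 5 (NAMPT, PPARA, KLF10, TSPO and NOCT, which is CCRN4L in the table) were not called against vehicle at either dose without the block. Without it, 12.5% of the 8 genes were called at 10 nM for 18 h and 37.5% for 6 h, beside 34.1% and 42% of all genes. At 100 pM, 12.5% were called for 18 h and 0% for 6 h, beside 10.5% and 3.48%. With the block NAMPT was called in all 4 comparisons, PPARA, KLF10 and NOCT in 1 each, and TSPO in 0. Of all genes, the block called 56% at 10 nM for 18 h and 62.4% for 6 h, and 34.1% and 12.2% at 100 pM. NAMPT, the rate-limiting enzyme gene of NAD salvage, had 0.61 ± 0.26 at 10 nM for 18 h (adjusted p = 0.106, with the block 1.65e-05) and 0.73 ± 0.26 at 100 pM for 18 h (0.120, with the block 1.35e-05). With the block its adjusted p at 6 h was 1.56e-05 at 10 nM and 1.05e-05 at 100 pM. PPARA, a nuclear receptor gene of lipid metabolism, had -0.52 ± 0.24 at 10 nM for 6 h (adjusted p = 0.115, with the block 6.16e-05). At 10 nM for 18 h KLF10 had 0.31 ± 0.24 (adjusted p = 0.368, with the block 0.00574) and NOCT, as CCRN4L, -0.40 ± 0.26 (adjusted p = 0.265, with the block 0.0114).

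**Figure D4:**
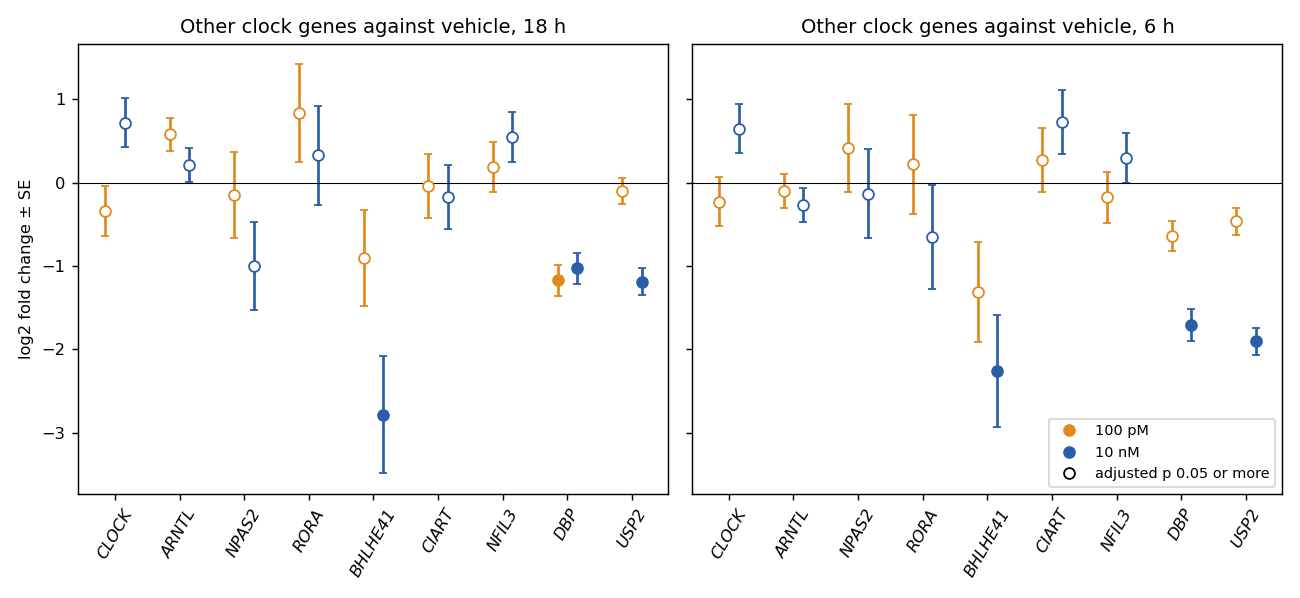
Log2 fold change ± SE (y axis) of 9 other clock genes (x axis) at 100 pM (orange) and 10 nM (blue) against vehicle, at 18 h (left) and 6 h (right); open points had an adjusted p of 0.05 or more. BHLHE41, DBP and USP2 lie below 0 in all 4 comparisons, and BHLHE41 has the widest errors among the filled points, at 10 nM.

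Set per length, the members differed widely in level. As CPM per kb of exon (GENCODE v29 exon unions, which need not be the authors' annotation), BHLHE40 was highest with vehicle at 6 h, at 28.5 ± 2.0 (SD, n = 2, as in the levels that follow). NR1D2 came next, at 13.4 ± 1.49, then CRY1 at 8.33 ± 1.46 and CRY2 at 8.01 ± 0.697, which lay within each other's spread. PER2 at 5.04 ± 0.00367 and PER3 at 4.87 ± 0.573 also lay within their spread, and TEF was at 4.06 ± 0.173. NR1D1 at 2.89 ± 0.858 and PER1 at 2.19 ± 0.356 lay within their spread too, and HLF was lowest at 0.771 ± 0.0208. At 10 nM for 6 h, BHLHE40 (13.3 ± 1.58) and CRY2 (12.7 ± 1.57) lay within each other's spread at the top. PER2 (10.2 ± 0.723) came next, then CRY1 (8.93 ± 0.864) and NR1D2 (8.18 ± 2.01), which lay within each other's spread. HLF stayed lowest (0.372 ± 0.000988).

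Across the 12 libraries, log2 CPM of PER3 and NR1D1 had a Pearson r of 0.947, PER3 and TEF 0.892, and PER2 and CRY2 0.845, as descriptions of points that share doses, times and replicate numbers. The 3 genes most like PER1 over the 12 libraries, among 10159 candidate genes, were C9orf152 (r = 0.967), STAT5B (0.964) and LRRC31 (0.947). Candidates were at or above 2 in average log2 CPM, and symbols written like clones, antisense genes or pseudogenes were left out. Those most like PER2 were PITPNA (0.952), TNK1 (0.951) and PARD6A (0.949), and those most like BHLHE40 were ELF5 (0.961), FXYD3 (0.958) and C11orf52 (0.954).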

How the data were processed

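The authors' deposited table holds raw read counts by gene symbol for 12 libraries. Per the submitters' processing notes, STAR and the hg19 build were used, and DESeq2 is named with no role. The sources used here do not give versions, counter, annotation or strand setting. Of 20114 symbols, 2709 had no count. The tools used on these counts were edgeR 4.0.16 with limma 3.58.1 and, as an alternative, DESeq2 1.42.0, under R 4.3.3. After filterByExpr, 13872 genes were tested. TMM scaling was followed by edgeR's robust quasi-likelihood test on 1 fit of the 6 groups, with 6 residual degrees of freedom and Benjamini-Hochberg adjustment over all genes in each of 11 comparisons. Levels are CPM on the TMM scale, and the SE is the log2 fold change divided by the root of F. The procedure was tested on simulated data, which held no effect shared by libraries with the same replicate number.

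The members and lists were chosen with earlier results of these data known. All 10 members are named, with CLOCK, ARNTL, NPAS2, RORA, DBP, NFIL3, BHLHE41 and CIART in any case and up to 4 called genes from each list, by smallest adjusted p; KLF10, PPARA, TSPO, NOCT and NAMPT were named after their values were seen. CIART and NOCT were matched through RefSeq synonyms, and FBXL21 and PECAM1 have no value here. A few genes of the clock lists are not reported here. Genes most like a member had the highest Pearson r of log2 CPM (prior count 2). The rule that left out symbols of pseudogene form dropped any symbol ending in P and a number. It therefore also dropped coding genes such as USP2 and USP7, so the ranking is not over all genes above the level cut. UTS2 was added after the annotation was read.

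Same-numbered libraries moved together: across genes, the difference of replicate 3 from replicate 1 had r of 0.464 to 0.677 (median 0.558) in the 15 pairings of groups. The labels do not say what a number shares, so the replicate block was kept as an alternative. Its biological coefficient of variation was 0.0678, against 0.163 without it. Replicates of 1 group were far from equal within sampling noise (chi-square per degree of freedom 42.6 to 63.9), so none was a second deposit of the other. Other alternatives were DESeq2's size factors, no filter, DESeq2, the libraries of 1 time alone, and each library left out, where the lone library of a group is assumed to vary like the other groups. None of these fits held the block. The part of the shared replicate number in calls lost on leaving out 1 library was not tested.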

Additional observations from a re-analysis of the deposited data

Results flagged for a closer look

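The effect of 10 nM against vehicle differed between 18 h and 6 h for 4 of the 10 members, by the interaction term of the edgeR fit, where 10.5% of all genes were called. The difference, 18 h minus 6 h on the log2 scale, was -1.29 ± 0.17, adjusted p = 0.00430 for PER2 and -0.83 ± 0.20, adjusted p = 0.0368 for CRY2, with a lower value at 18 h in both. It was 0.76 ± 0.15, adjusted p = 0.0184 for BHLHE40 and 0.54 ± 0.14, adjusted p = 0.0469 for TEF, with a higher value at 18 h. At 10 nM both PER2 libraries of 18 h lay below both of 6 h, as did those of CRY2, and both BHLHE40 and both TEF libraries of 18 h lay above both of 6 h. The CRY2 and TEF calls were lost whichever of the 8 libraries was left out, so that 1 to 2 members were then called. The fit of all libraries with the replicate block called 6 members (35.1% of genes). With 2 libraries a group, no library could be tested for standing apart.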

How the results depend on the processing

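Of 110 values (10 members in 11 comparisons), 44 were called. These comparisons called 0% (vehicle between times) to 42% (10 nM against vehicle at 6 h) of all genes. Of the 44 member values, 0 changed sign under any alternative. Uncalled values changed sign 38 times over all fits that left out 1 library. No call was lost with the replicate block or DESeq2, which added 30 and 9. Against vehicle, DESeq2 added PER2, BHLHE40 and HLF at 100 pM for 6 h and CRY2 and HLF at 100 pM for 18 h. It also added PER3 for 10 nM against 100 pM at 18 h and NR1D2 between times at 100 pM. The others were the changes with time of the 100 pM effect for BHLHE40 and of the 10 nM effect for HLF. DESeq2's size factors ended the call of TEF at 100 pM between times (adjusted p = 0.0529) and added PER3 for 10 nM against 100 pM at 18 h, and no filter ended 3 calls of TEF (between times at 100 pM and at 10 nM, and the change of the 10 nM effect) and added the same PER3 call. The libraries of 1 time alone ended 7 calls, and leaving out 1 library ended 72 calls over all such fits.

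The number of members called moved by more than 1.5 times as follows. For 100 pM against vehicle it was 5 at 18 h (9 with the replicate block, 3 with that time alone) and 3 at 6 h (8 with the block, 6 with DESeq2). For 10 nM against 100 pM at 18 h it was 4 (8 with the block). For 18 h against 6 h at 100 pM it was 2 (6 with the block, 1 with DESeq2's size factors, 1 with no filter). For the change of the 100 pM effect with time it was 0 (3 with the block, 1 with DESeq2).

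Leaving out 1 library, the number was 2 to 3 for 100 pM against vehicle at 18 h and 0 to 2 at 6 h, 4 to 6 for 10 nM against vehicle at 18 h and 5 to 8 at 6 h, and 3 to 6 for 10 nM against 100 pM at 6 h. It was 0 to 0 for 18 h against 6 h at 100 pM and 1 to 2 for the change of the 10 nM effect with time (4 in the full fit).

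The background count of genes also moved. With the block it was 4728 for 1450 (100 pM, 18 h), 1696 for 483 (100 pM, 6 h), 7767 for 4734 (10 nM, 18 h), 6958 for 3635 and 8231 for 5127 (10 nM against 100 pM at 18 h and 6 h), 3076 for 164 and 6819 for 3393 (18 h against 6 h at 100 pM and 10 nM), 4 for 0 (vehicle), and 777 for 2 and 4863 for 1462 (the change of the 100 pM and 10 nM effects with time). DESeq2 gave 2203 and 836 at 100 pM for 18 h and 6 h, 841 for 18 h against 6 h at 100 pM, and 107 and 2298 for the change of the 100 pM and 10 nM effects; the 18 h libraries alone gave 655 at 100 pM. For the change of the 100 pM effect, DESeq2's size factors gave 1 and no filter 5. Leaving out 1 library, the count was 512 to 845 at 100 pM for 18 h and 221 to 308 for 6 h, 3202 to 3588 at 10 nM for 18 h and 4070 to 4579 for 6 h, and 2286 to 2900 and 3281 to 4242 for 10 nM against 100 pM at 18 h and 6 h. For 18 h against 6 h it was 9 to 26 at 100 pM and 1817 to 2282 at 10 nM, and it was 0 to 0 and 467 to 860 for the change of the 100 pM and 10 nM effects. The causes were not tested. For the other clock genes the replicate block alone was run. With 2 libraries a group and 2 times, many calls of members were lost in fits that left out 1 library, all run without the block.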
